A study of Homo sapiens with 12 samples.

Results

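The JmjC-domain histone lysine demethylases KDM2A, KDM2B, KDM3A, KDM3B, KDM4A, KDM4B, KDM4C, KDM5A, KDM5B and KDM6B were followed in 2 ovarian cancer cell lines treated with an inhibitor of the chromatin protein ATAD2. These 10 genes, chosen with earlier results of these data known, were taken by symbol from a table of 26475 genes. PA-1 came from an ovarian teratocarcinoma and SK-OV-3 from an ovarian adenocarcinoma, and the labels name no engineered allele in either. For 48 h, cells of each line received the vehicle DMSO or 5 µM BAY-850, a compound directed at the bromodomain with which ATAD2 reads acetylated histones. Each of the 4 groups was sequenced in 3 biological replicates, giving 12 RNA-seq libraries. The series holds 1 dose, 1 time point and no inactive control compound, and PA-1 was grown in DMEM while SK-OV-3 was grown in RPMI, so that line and medium cannot be told apart.

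JmjC demethylases remove methyl groups from histone lysines in a reaction that uses oxygen, iron and alpha-ketoglutarate. KDM2A and KDM2B bind unmethylated CpG islands and act on lysine 36 of histone H3, and KDM2B recruits the Polycomb complex PRC1.1. KDM3A and KDM3B remove mono- and dimethylation and the KDM4 enzymes di- and trimethylation of lysine 9, with KDM4A to KDM4C also acting on lysine 36. KDM5A and KDM5B erase methylation of lysine 4, a mark of active promoters, and KDM6B erases the Polycomb mark on lysine 27. KDM3A and KDM4B are known target genes of hypoxia-inducible factor (HIF), a transcription factor that binds DNA through the core letters ACGTG or GCGTG.

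Since the HIF core bears on KDM3A and KDM4B, the 250 bases upstream of the most upstream RefSeq start of each gene (GRCh38.p14) were searched on both strands for ACGTG and GCGTG, with overlapping matches counted as 1. At least 1 match was present in 8 of the 10 windows, with none in those of KDM2B and KDM3B. Matches were common in general, being present in 43.2% of 35116 RefSeq windows and in 56.3% of the 11111 windows of genes tested in PA-1 that had a window. The KDM4B window (chr19:4968863-4969112, plus strand) held 3 matches, shown here in capitals, the first of them the palindrome CACGTG that carries the core on both strands.
KDM4B: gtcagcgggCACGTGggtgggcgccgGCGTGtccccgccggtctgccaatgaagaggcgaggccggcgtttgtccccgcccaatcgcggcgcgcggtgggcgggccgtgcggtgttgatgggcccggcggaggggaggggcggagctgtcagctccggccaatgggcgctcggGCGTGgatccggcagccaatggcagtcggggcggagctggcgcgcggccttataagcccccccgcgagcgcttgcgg
The windows of the other 3 members that rose in both lines held 1 match each, printed in capitals with the bases around it. It lay 26 bases upstream of the KDM3A start (chr2:86441333-86441361, plus strand), 64 bases upstream of the KDM5B start (chr1:202808469-202808497, minus strand) and 231 bases upstream of the KDM6B start (chr17:7833974-7834002, plus strand). That RefSeq start, at position 7834217 of chromosome 17, lies upstream of the GENCODE start of KDM6B at 7839904. The RefSeq starts of KDM3A (86441371) and KDM5B (202808421) lie downstream of their GENCODE starts (86440647 and 202809470). Their matches therefore fall inside the GENCODE gene spans.
KDM3A: ccgggaggctgtGCGTGtcttgtgagagc
KDM5B: cggaggcgcacgGCGTGggcttgcggcga
KDM6B: ccttagaagggcGCGTGatccaaatgagt
KDM4C, which rose in PA-1, had 3 matches in its window, and 2 of them were CACGTG, at 63 bases (chr9:6757898-6757926, plus strand) and 31 bases (chr9:6757930-6757958, plus strand) upstream of the start. This RefSeq start, at position 6757973 of chromosome 9, lies far inside the GENCODE gene, which starts at 6720863.
KDM4C at 63 bases: tgtttgtaagccCACGTGactcaccaagt
KDM4C at 31 bases: ggccccagcggtCACGTGacggcgcgcgc
Matches were not limited to members that rose in both lines. The KDM2A window held 3 matches, at 180, 137 and 126 bases upstream of the start, and those of KDM4A and KDM5A, which did not pass in either line, held 1 each, at 79 and 154 bases. A match is a description of these letters only, and binding of HIF was not measured here.

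Library totals lay between 34544505 and 51840233 expected counts, and 7.94% to 16.9% of them fell on genes for ribosomal RNA. The BAY-850 replicate 3 of SK-OV-3 had the highest total and the fewest genes with at least 1 count (15626), and its values are given beside the results it touches. The germ-cell and pluripotency genes LIN28A (756 against 0.102) and SOX2 (224 against 0) marked PA-1, and ERBB2 (2420 against 61.3) and PAX8 (223 against 0.369) marked SK-OV-3, as the mean CPM (counts relative to the library total, normalized with TMM, the trimmed mean of M values, over all 12 libraries) with DMSO in the labelled line against the other. With DMSO, all 7 PA-1 markers tested were lower in SK-OV-3, though L1TD1 (0.448 CPM) and DPPA4 (1.8 CPM) were low in PA-1 too, and 7 of 8 SK-OV-3 markers were higher there, KRT18 being lower. With BAY-850, 4 of those 8 epithelial markers fell in SK-OV-3 (EPCAM, KRT8, KRT19 and ERBB2) and PAX8 rose, and the part of this in the results on the demethylases was not tested. Of 6 markers of blood, endothelial and liver cells, PTPRC, CD3E, CD14 and ALB stayed under 1 CPM in every library, while the endothelial genes PECAM1 and VWF averaged 23.6 and 2.99 CPM in PA-1 with DMSO. All 10 members were well counted, the lowest value being 418 expected counts, for KDM4C. In bulk RNA, a change in the share of cells that express a gene and a change in RNA per cell cannot be told apart.

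BAY-850 raised 7 of the 10 demethylases in PA-1 and 4 of 10 in SK-OV-3, and lowered none in either line. The genes that rose in both were KDM3A, KDM4B, KDM5B and KDM6B, and KDM2A, KDM2B and KDM4C rose in PA-1. The estimates of KDM4C were similar in the lines (log2 0.32 in PA-1 and 0.28 in SK-OV-3). The count in PA-1 was 4 when scaled by library size only, and also 4 without the DMSO replicate 1, the DMSO replicate 2 or the BAY-850 replicate 2 of PA-1. In each of these settings KDM2A, KDM4C and KDM6B lost their calls. Of all genes tested, 4.65% were higher and 2.48% lower in PA-1 (15212 genes), and 10.8% were higher and 9.56% lower in SK-OV-3 (15348 genes), at an adjusted p under 0.05 (edgeR quasi-likelihood test, Benjamini-Hochberg over all genes tested). The median log2 fold change of the members was 0.35 in PA-1 and 0.17 in SK-OV-3, against -0.0019 and -0.0091 over all genes tested. Because the members were chosen with earlier results of these data known, these counts and medians describe them and do not test the group. Added over the 10 genes, the level went from 861 ± 50.1 to 1160 ± 59.1 CPM in PA-1 and from 569 ± 25.2 to 632 ± 11.2 CPM in SK-OV-3 (mean ± SD, n = 3 per group).

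**Figure D1:**
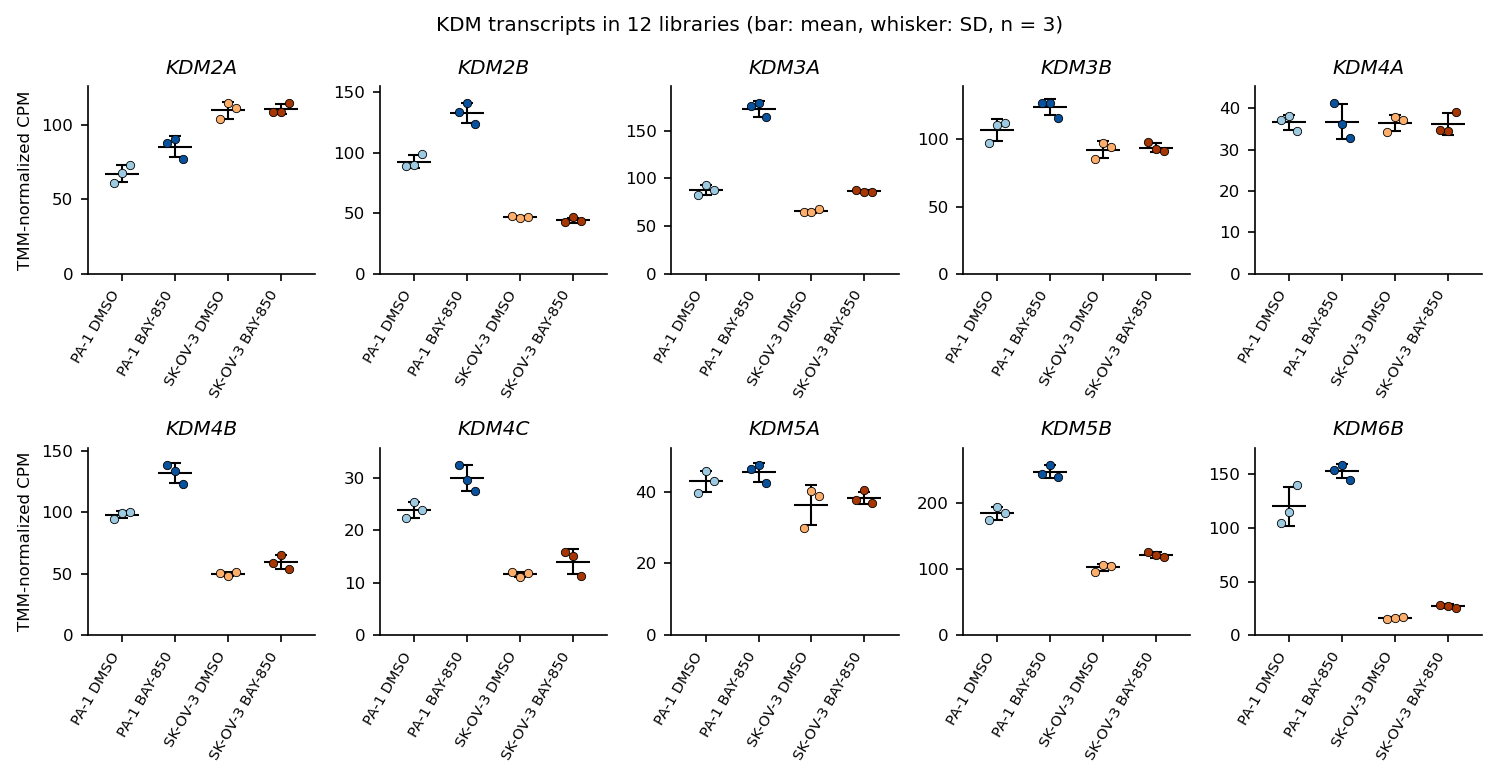
Level of each demethylase transcript in every library, in TMM-normalized CPM, on a linear axis from 0 for each gene. Points are libraries, bars the group means and whiskers the SD (n = 3). In PA-1 every BAY-850 library lies above every DMSO library for 8 of 10 genes, and in SK-OV-3 for 4 of 10.

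The replicate values behind these calls were also compared directly. In PA-1, every BAY-850 replicate lay above every DMSO replicate for 8 of the 10 members, a separation seen for 14.1% of all genes tested. KDM3B, which did not pass the threshold, was among these 8, and KDM4A and KDM5A overlapped. In SK-OV-3 this held for KDM3A, KDM4B, KDM5B and KDM6B, beside 18.1% of all genes tested. No member had all its BAY-850 replicates below its DMSO replicates.

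The H3K9 demethylase KDM3A (chromosome 2, 86440647 to 86492716, plus strand, GRCh38) showed the largest change of the 10 in PA-1. Its DMSO replicates had 82.5, 92.6 and 88.3 CPM and its BAY-850 replicates 176, 179 and 164 CPM. The groups stood far apart, and KDM3A rose 1.97-fold (log2 fold change 0.98, SE 0.0624, adjusted p = 1.19e-07, edgeR), the 19th lowest p-value of the 15212 genes. In SK-OV-3, KDM3A went from 64.4, 64.8 and 67.5 CPM to 87.6, 86 and 85.2 CPM. Here too no replicates overlapped, and the rise was 1.33-fold (log2 0.41, SE 0.0558, adjusted p = 0.000405, edgeR). The response was smaller in SK-OV-3 by 0.58 on the log2 scale when the difference itself was tested with an interaction term over all 12 libraries (interaction -0.58, SE 0.0795, adjusted p = 0.000183, edgeR). These 3 calls held in each alternative analysis, including the removal of each library in turn.

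KDM3B (chromosome 5, 138352596 to 138437028, plus strand), the closest relative of KDM3A, did not pass in either line. PA-1 had 97.4, 111 and 112 CPM with DMSO and 127, 127 and 116 CPM after treatment, where the replicates did not overlap but the change missed the threshold (log2 0.21, SE 0.0665, adjusted p = 0.0715, edgeR). It passed without the BAY-850 replicate 3 of PA-1 (adjusted p = 0.0399, edgeR), under DESeq2 (adjusted p = 0.0286) and with no filter on low counts (adjusted p = 0.0213, edgeR). In SK-OV-3 the DMSO values of 85.1, 97.4 and 94.3 CPM and the BAY-850 values of 97.8, 92.5 and 91.5 CPM were intermixed (log2 0.039, 95% interval -0.1 to 0.18).

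KDM2B (chromosome 12, 121429097 to 121581015, minus strand), the CpG-island reader of PRC1.1, had the largest estimated difference between the responses of the lines. In PA-1 it rose from 88.7, 90 and 98.6 CPM to 134, 141 and 124 CPM, a 1.44-fold change without overlap (log2 0.53, SE 0.0645, adjusted p = 0.00015, edgeR). In SK-OV-3 it had 47.6, 46.4 and 46.8 CPM with DMSO and 42.4, 46.5 and 43.3 CPM with BAY-850. Those groups overlapped by 1 replicate, and the log2 fold change of -0.077 had a 95% interval of -0.22 to 0.069. The responses differed by 0.62 on the log2 scale (interaction -0.62, SE 0.0892, adjusted p = 0.00032, edgeR), and both this call and the rise in PA-1 held in each alternative analysis.

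KDM2A (chromosome 11, 67119269 to 67258087, plus strand), its paralog, followed the same order with smaller values. In PA-1 the DMSO replicates had 61.3, 68.1 and 73.1 CPM and the BAY-850 replicates 87.9, 91 and 77.5 CPM. The lowest treated replicate lay just above the highest control, and KDM2A rose 1.27-fold (log2 0.34, SE 0.0759, adjusted p = 0.0148, edgeR). In SK-OV-3 its levels were 104, 115 and 112 CPM with DMSO and 109, 109 and 115 CPM with BAY-850, which could not be told apart (log2 0.021, 95% interval -0.11 to 0.15). The interaction of -0.33 (SE 0.103) had an adjusted p of 0.0422 (edgeR). The rise in PA-1 lost its call without the DMSO replicate 1, the DMSO replicate 2 or the BAY-850 replicate 2 of PA-1 (adjusted p = 0.0776, 0.0683 and 0.0923), and by library size only (adjusted p = 0.117, edgeR). The interaction lost its call in 12 of 21 alternative analyses, with adjusted p-values from 0.0159 to 0.281.

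Within the KDM4 group, KDM4B (chromosome 19, 4969113 to 5153595, plus strand) rose in both lines. It went from 94.9, 99.8 and 100 CPM to 139, 134 and 123 CPM in PA-1 (1.34-fold, log2 0.43, SE 0.0608, adjusted p = 0.000657, edgeR). In SK-OV-3 it went from 50.6, 48.3 and 51.6 CPM to 59, 65.3 and 53.9 CPM (1.19-fold, log2 0.26, SE 0.0731, adjusted p = 0.03, edgeR). Neither pair of groups overlapped, although the third treated SK-OV-3 replicate lay close to the controls. The call in PA-1 held in each alternative, whereas that in SK-OV-3 was lost without any one of the SK-OV-3 DMSO replicates 1, 2 and 3 and BAY-850 replicates 1 and 2 (adjusted p = 0.05, 0.135, 0.0686, 0.0691 and 0.14). The SK-OV-3 call was also lost by library size only and with a block for the replicate number. The difference between the lines was not significant (interaction -0.18, 95% interval -0.39 to 0.03).

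KDM4C (chromosome 9, 6720863 to 7175648, plus strand) was the member with the fewest counts. In PA-1 it rose from 22.4, 25.4 and 23.9 CPM to 32.5, 29.5 and 27.5 CPM (1.25-fold, log2 0.32, SE 0.083, adjusted p = 0.0316, edgeR). In SK-OV-3 it had 12, 11.1 and 11.8 CPM with DMSO and 15.8, 15 and 11.3 CPM with BAY-850. The first 2 treated SK-OV-3 replicates lay above the controls and the third among them, and the change did not pass (log2 0.28, 95% interval -0.016 to 0.57, adjusted p = 0.173, edgeR). Without the BAY-850 replicate 3 of SK-OV-3 it did (log2 0.40, adjusted p = 0.0158), whereas the call in PA-1 was lost without any one of the PA-1 DMSO replicates 1, 2 and 3 and BAY-850 replicates 1 and 2 (adjusted p = 0.114, 0.0626, 0.0626, 0.132 and 0.104). The PA-1 call was also lost by library size only (adjusted p = 0.131, edgeR) and with all 12 libraries in one fit (adjusted p = 0.144, edgeR). No difference between the lines was detected (interaction -0.055, 95% interval -0.41 to 0.3).

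KDM4A (chromosome 1, 43650158 to 43705515, plus strand) was the flattest member across all 12 libraries. PA-1 had 37.2, 38.1 and 34.5 CPM with DMSO and 41.3, 36.2 and 32.9 CPM after treatment. The SK-OV-3 values were 34.2, 38 and 37.3 CPM with DMSO and 34.9, 34.6 and 39.2 CPM with BAY-850. All 4 groups overlapped, and the log2 fold change was 0.011 in PA-1 (95% interval -0.17 to 0.19) and 0.0059 in SK-OV-3 (-0.18 to 0.19). KDM4A shares exonic positions with the antisense gene KDM4A-AS1, and its expected count was not a whole number in any of the 12 libraries.

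Of the H3K4 demethylases, KDM5B (chromosome 1, 202724495 to 202809470, minus strand) rose in both lines. In PA-1 it went from 175, 195 and 185 CPM to 244, 259 and 240 CPM (1.34-fold, log2 0.42, SE 0.0584, adjusted p = 0.000484, edgeR). In SK-OV-3 it went from 96.5, 107 and 105 CPM to 127, 121 and 118 CPM (1.2-fold, log2 0.26, SE 0.0585, adjusted p = 0.00874, edgeR). The groups were separate in both lines, and both calls held in each alternative analysis. The interaction was -0.17 with a 95% interval of -0.35 to 0.0015.

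KDM5A (chromosome 12, 280129 to 389454, minus strand) showed no detectable response. PA-1 had 39.7, 45.8 and 43 CPM with DMSO and 46.3, 47.5 and 42.5 CPM after treatment (log2 0.085, 95% interval -0.068 to 0.24). In SK-OV-3 the corresponding values were 29.9, 40.1 and 38.8 CPM and 37.5, 40.3 and 36.9 CPM (log2 0.09, 95% interval -0.14 to 0.32). Treated and control replicates were intermixed in both lines, the DMSO replicate 1 of SK-OV-3 being the lowest. KDM5A shares exonic positions with CCDC77 on the opposite strand, and its expected count was not whole in 5 libraries.

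KDM6B (chromosome 17, 7839904 to 7854796, plus strand), the H3K27 demethylase, was the only member to rise by over 1.5-fold in SK-OV-3. There it went from 15.4, 16.3 and 17.3 CPM to 28.5, 27.5 and 24.9 CPM, 1.66-fold higher without overlap (log2 0.73, SE 0.0916, adjusted p = 0.000223, edgeR), and the call held in each alternative. In PA-1 its level was far higher, with 105, 115 and 140 CPM with DMSO and 154, 159 and 145 CPM with BAY-850. The DMSO replicate 3 lay close to the treated group, and the rise of 1.27-fold (log2 0.35, SE 0.0862, adjusted p = 0.0255, edgeR) was lost without the DMSO replicates 1 or 2 or the BAY-850 replicates 1 or 2 of PA-1 (adjusted p = 0.107, 0.128, 0.0568 and 0.109). Scaling by library size only also removed this PA-1 call. The larger response in SK-OV-3 did not pass as a difference (interaction 0.37, 95% interval 0.091 to 0.65, adjusted p = 0.0735, edgeR), but did without the DMSO replicate 1 of PA-1 or the BAY-850 replicate 3 of SK-OV-3 (adjusted p = 0.0273 and 0.041).

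**Figure D2:**
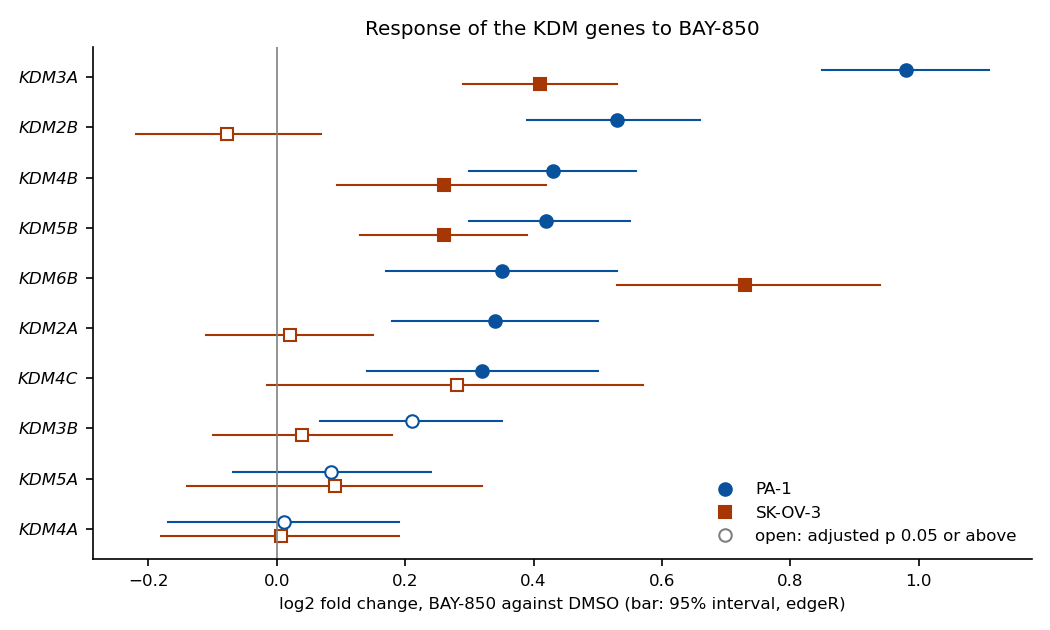
Log2 fold change of each member with BAY-850 against DMSO in PA-1 (circles) and SK-OV-3 (squares), with 95% intervals from edgeR; filled symbols passed an adjusted p under 0.05. KDM3A (0.98) lies farthest right in PA-1 and KDM6B (0.73) in SK-OV-3, and the intervals of KDM2B in the lines lie apart, from 0.39 to 0.66 in PA-1 and from -0.22 to 0.069 in SK-OV-3.

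Tested as a difference between the lines, the response of 3 of 10 members was lower in SK-OV-3 than in PA-1 (KDM2A, KDM2B and KDM3A) and that of none was higher, while 7.77% of 16830 genes had a lower and 6.7% a higher response. The median interaction of the members was -0.18, against -0.02 over all genes tested. KDM6B was the only member with an estimate above 0.

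The base composition of transcripts moved with the response. When the PA-1 genes were sorted into 10 equal bins by exonic GC content, the median log2 fold change ran from -0.12 in the GC-poorest bin to 0.12 in the GC-richest, and members lay on both sides, from 41.6% GC for KDM5B to 61.5% for KDM6B. With each library's trend on GC content removed, 6 members were higher in PA-1 and 4 in SK-OV-3. Over all genes in this setting, 408 of 15212 were higher in PA-1 and 2054 of 15348 in SK-OV-3. With the trend removed, the PA-1 log2 fold changes among GC-poor members were 1.02 for KDM3A, 0.48 for KDM5B and 0.38 for KDM4C. Among GC-rich members they were 0.45 for KDM2B, 0.33 for KDM4B and 0.24 for KDM6B. KDM2B and KDM4B kept their calls and KDM6B lost its call (adjusted p = 0.148, edgeR). The interaction of KDM6B under this setting was 0.50 (adjusted p = 0.0249), and that of KDM2A was -0.21 (adjusted p = 0.281).

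The lines also differed in these enzymes under the vehicle. With DMSO, 8 of 10 members were lower and 1 was higher in SK-OV-3 than in PA-1, in a comparison that called 40.2% of 16070 genes lower and 40.1% higher (edgeR, adjusted p under 0.05). KDM6B differed most, its log2 difference of -2.88 (SE 0.104, adjusted p = 4.42e-11, edgeR) leaving SK-OV-3 at 0.136 of the PA-1 level. KDM4C (-1.04), KDM2B (-0.98), KDM4B (-0.97) and KDM5B (-0.85) lay at 0.486 to 0.555 of the PA-1 level, and KDM3A (-0.43), KDM5A (-0.25) and KDM3B (-0.22) differed less. KDM2A was the one member higher in SK-OV-3 (log2 difference 0.71, SE 0.0715, adjusted p = 1.15e-06, edgeR), and KDM4A did not differ detectably (-0.0084, 95% interval -0.17 to 0.15). The calls of KDM3B and KDM5A (adjusted p = 0.014 and 0.0436) were each lost without the PA-1 DMSO replicates 2 or 3 or the SK-OV-3 DMSO replicate 1. Scaling by library size only removed both calls, and that of KDM5A was also lost under DESeq2, with RLE factors and by library size without ribosomal RNA genes.

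**Figure D3:**
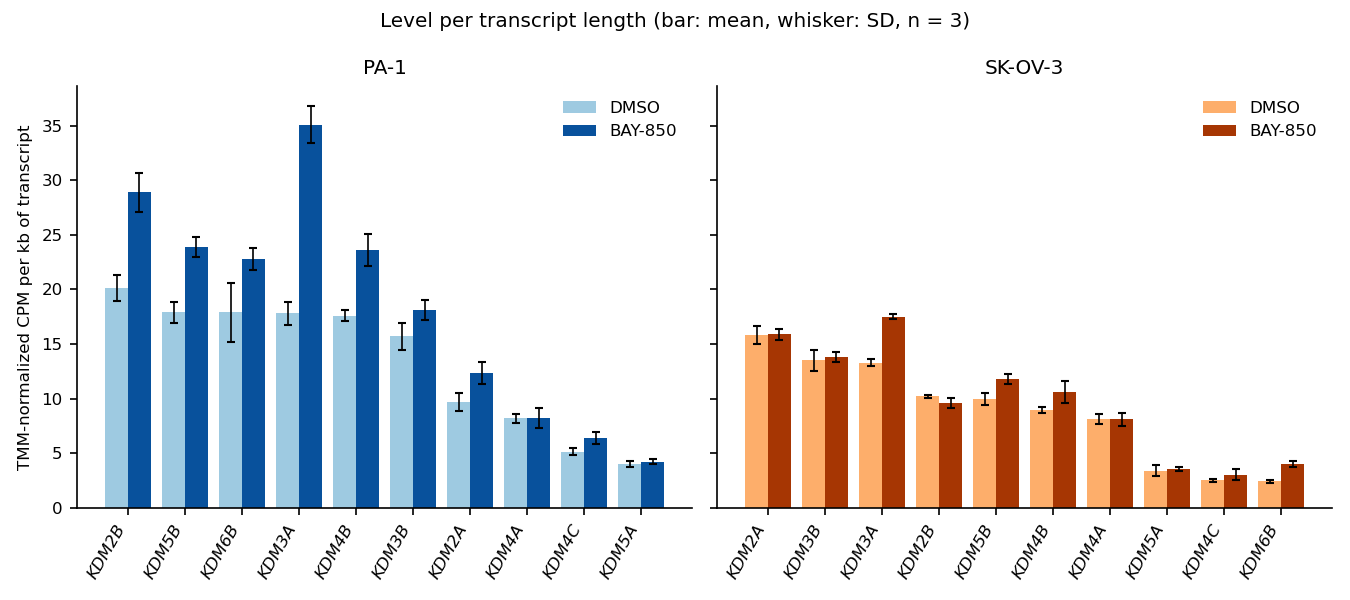
Level of the members as CPM per kb of their longest principal transcript, ordered in each line by the DMSO level; bars are means and whiskers the SD (n = 3). With BAY-850, KDM3A stands highest in both lines (35.1 in PA-1 and 17.5 in SK-OV-3), while KDM5A and KDM4C stay among the lowest.

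Levels between genes were compared per kb of the longest principal transcript. In PA-1 with DMSO, KDM2B had the highest mean, 20.1 ± 1.18 CPM per kb, ahead of KDM5B (17.9 ± 0.964), KDM6B (17.9 ± 2.73), KDM3A (17.8 ± 1.04), KDM4B (17.6 ± 0.53) and KDM3B (15.7 ± 1.21). KDM6B, the most variable, overlapped with each of these genes, KDM2B included, and KDM5B, KDM3A and KDM4B overlapped with one another. KDM2A (9.69 ± 0.848), KDM4A (8.18 ± 0.422), KDM4C (5.13 ± 0.326) and KDM5A (3.98 ± 0.283) followed, each step without overlap. After BAY-850, KDM3A led at 35.1 ± 1.71, above KDM2B at 28.9 ± 1.79 CPM per kb.

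The order in SK-OV-3 was different. With DMSO, KDM2A led at 15.8 ± 0.828 CPM per kb, followed by KDM3B (13.5 ± 0.939) and KDM3A (13.3 ± 0.342), which overlapped. KDM2B (10.2 ± 0.131) and KDM5B (9.95 ± 0.544) also overlapped, ahead of KDM4B (8.97 ± 0.299) and KDM4A (8.15 ± 0.45). KDM5A (3.37 ± 0.513), KDM4C (2.5 ± 0.11) and KDM6B (2.43 ± 0.141) formed the low end, the last 2 overlapping. After BAY-850, KDM3A (17.5 ± 0.24) lay above KDM2A (15.9 ± 0.489), and KDM6B (4.02 ± 0.273) came to overlap with KDM5A (3.55 ± 0.166).

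Other histone demethylases and JmjC proteins moved in both directions. The members were chosen with earlier results of these data known, so a contrast between them and this list is no test. Of 21 listed, among them the amine oxidases KDM1A and KDM1B, which work by another chemistry, 20 were tested, and 2 were higher and 1 lower in each line, with medians of 0.045 in PA-1 and -0.041 in SK-OV-3. Over all genes tested, 4.65% were higher and 2.48% lower in PA-1, and 10.8% higher and 9.56% lower in SK-OV-3. The JmjC protein JMJD6 rose in both (log2 0.32 and 0.37), the H3K4 demethylase KDM5C rose in PA-1 (0.26), and KDM7A, which acts on lysines 9 and 27, rose in SK-OV-3 (0.49). TYW5, a JmjC hydroxylase of transfer RNA, fell in PA-1 (-0.33), and HR, an H3K9 demethylase of hair follicle biology, fell in SK-OV-3 (-1.54). Both of these also differed between the lines (adjusted p = 0.0118 for TYW5 and 0.00202 for HR, edgeR interaction). HR was barely counted in PA-1, averaging 0.169 CPM under the vehicle and 0.402 CPM after treatment. Its PA-1 response was therefore poorly measured (log2 1.25, SE 0.693). TYW5 did not pass in SK-OV-3 (log2 0.41, adjusted p = 0.0557, edgeR). Its treated SK-OV-3 replicates had 28.1, 26.2 and 37.7 CPM, the third being the highest, against 23.7, 21.7 and 24.9 CPM in the controls.

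Among 28 histone lysine methyltransferases, some of which write the marks that the members erase, 4 were higher and none lower in PA-1 (median log2 fold change 0.13), and 5 were higher and 4 lower in SK-OV-3 (median 0.006). The shares over all genes tested were 4.65% higher and 2.48% lower in PA-1, and 10.8% and 9.56% in SK-OV-3. The H3K9 methyltransferase EHMT2 rose most clearly in PA-1 (log2 0.40, SE 0.057, adjusted p = 0.000672, edgeR), followed by KMT2E (0.28), DOT1L (0.26) and KMT2B (0.27). In SK-OV-3, EZH1 rose (0.40) while EZH2, the other catalytic subunit of Polycomb repressive complex 2 (PRC2) and opponent of KDM6B, fell (-0.45), as did the H3K9 enzyme SUV39H1 (-0.60), whereas SETDB2 rose (0.49). Neither EZH1 nor EZH2 passed in PA-1 (0.086 and -0.08), and the response of both differed between the lines (interaction 0.30 for EZH1 and -0.38 for EZH2, adjusted p = 0.0351 and 0.0466, edgeR). Of the 28, 3 had a higher and 6 a lower response in SK-OV-3, beside 6.7% and 7.77% of all genes tested. The lowest adjusted p-values there were those of SETDB2 (0.64, adjusted p = 0.00764) and EHMT2 (-0.31, adjusted p = 0.0137, edgeR interaction). Of the 9 PRC1.1 partners of KDM2B, BCORL1 (0.32) and RYBP (0.20) rose in PA-1. In SK-OV-3, where KDM2B did not pass, PCGF1 (0.51), RNF2 (0.46), YAF2 (0.29) and RYBP (0.23) did and SKP1 fell (-0.20), and PCGF1, RNF2 and YAF2 had a higher response there than in PA-1 (adjusted p = 0.015, 0.00455 and 0.00578, edgeR interaction).

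**Figure D4:**
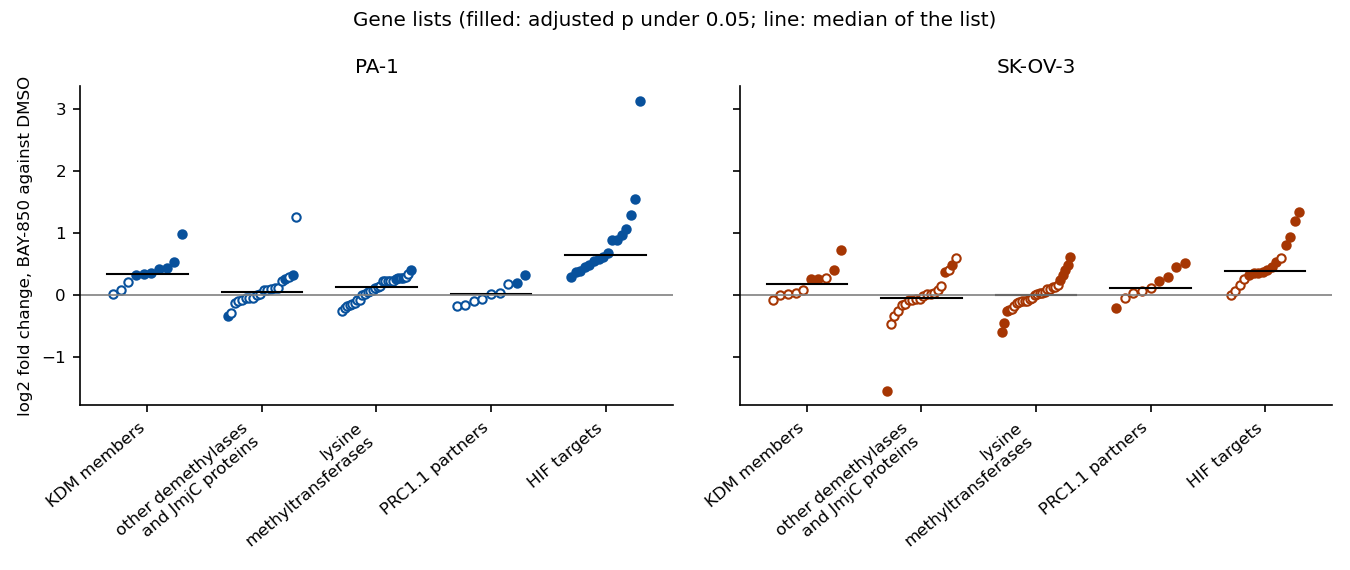
Log2 fold change with BAY-850 of the members and 4 gene lists in PA-1 and SK-OV-3; each point is a gene, filled where the adjusted p was under 0.05 (edgeR), and the line is the median of the list. The HIF targets have the highest medians (0.64 in PA-1 and 0.39 in SK-OV-3), and the other demethylases have medians near 0 (0.045 and -0.041).

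HIF target genes were read here because KDM3A and KDM4B belong to that program, and most of those listed rose in both lines. In a list drawn up with earlier results of these data known, all 16 targets were higher in PA-1 (median log2 fold change 0.64) and 11 of 16 in SK-OV-3 (median 0.39), with none lower. The shares higher over all genes tested were 4.65% in PA-1 and 10.8% in SK-OV-3. In PA-1 the lowest p-values belonged to ANKRD37 (3.13), the glucose transporter SLC2A1 (1.29), the glycolytic enzyme HK2 (1.55) and the HIF prolyl hydroxylase EGLN1 (0.97). In SK-OV-3 they belonged to the angiogenic factor VEGFA (1.19), BNIP3 (0.93), NDRG1 (0.81) and P4HA1 (0.54). SLC2A1 (0.06), LDHA (0.00011), ANKRD37 (0.26), EGLN1 (0.16) and EGLN3 (0.6) did not pass in SK-OV-3. The response differed between the lines for 9 of the 16. It was lower in SK-OV-3 for 6, among them SLC2A1 (-1.24), ANKRD37 (-2.89) and HK2 (-1.21), and higher for 3, among them CA9 (0.96). CA9 averaged only 2.8 CPM in SK-OV-3 with DMSO. Of all genes tested, 7.77% had a lower and 6.7% a higher response in SK-OV-3.

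Across the 12 libraries, with each line centered on its own mean, the genes whose level followed KDM3A most closely among 13861 genes were BHLHE40 (Pearson r = 0.991), PLOD2 (0.983) and MXI1 (0.981). For KDM4B they were PKD1 (0.958), CEP250 (0.958) and GGA2 (0.957). PLOD2, a collagen lysyl hydroxylase, is also one of the 16 HIF targets. These values are descriptions over libraries that share treatment, scaling and base composition, with 6 libraries of each line.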

How the data were processed

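RNA from PA-1 and SK-OV-3 cells was sequenced in 12 libraries. Per the deposited table, the authors' values are expected counts, 1 per gene symbol and library and not normalized. The submitters' processing notes name RSEM 1.2.15, Bowtie2 2.1.0 and hg38, without saying which step each served. The library protocol describes oligo-dT purification and dUTP strand marking, whereas the series design names ribosomal depletion, and the strand setting of the counting is not given in the sources used here. Reads of genes with exons on both strands (KDM2B with RNF34, KDM4A with KDM4A-AS1, KDM5A with CCDC77) could be divided between them. The expected counts of KDM2B were whole in all 12 libraries, whereas those of KDM4A and KDM5A were not.

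Expected counts were rounded to whole numbers and analyzed in edgeR 4.0.16 (R 4.3.3) with TMM factors, the filterByExpr filter and quasi-likelihood tests, once within each line (6 libraries), once for the interaction of line and treatment (12 libraries) and once for the lines with DMSO (6 libraries). P-values were adjusted by Benjamini-Hochberg over all genes tested, with a threshold of 0.05. The standard error was the log2 fold change divided by the square root of F. The p-values measure the spread between cultures of 1 line. Levels are CPM with TMM factors from all 12 libraries, per kb of the longest APPRIS principal transcript where genes are compared. Positions and GC content were read from GENCODE (GRCh38), in which 23900 symbols matched directly, 25 and 730 through a current or an older symbol, and 1820 did not match. Upstream sequences came from RefSeq (GRCh38.p14).

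The 10 members and the gene lists were chosen with earlier results of these data known. Named were all members and, of each list, genes past the threshold in order of adjusted p, at most 6 per comparison, and for KDM3A and KDM4B the 3 genes of highest Pearson r of log2 CPM (prior count 2). For the interaction, EZH1, EZH2 and CA9 were named outside that order, and the HIF targets that did not pass in SK-OV-3 were named as well. Alternatives were DESeq2 1.42.0, limma-voom (limma 3.58.1), RLE factors, library size only, library size without ribosomal RNA genes, no filter, a minimum of 10 counts per library, a block for the replicate number, removal of each library's trend on GC content (loess span 0.5), all 12 libraries in one fit, and each library left out in turn. The fits were tested on simulated counts. No protein sequence was used here.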

Additional observations from a re-analysis of the deposited data

Results flagged for a closer look

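The response to BAY-850 differed between the lines for 3 members, by the interaction term of the edgeR fit over 12 libraries. As SK-OV-3 minus PA-1 on the log2 scale, the difference was -0.62 for KDM2B (PA-1 0.53, SK-OV-3 -0.077), -0.58 for KDM3A (0.98 and 0.41) and -0.33 for KDM2A (0.34 and 0.021). Every treated PA-1 replicate lay above every control for these 3 genes, and in SK-OV-3 this held for KDM3A. The differences of KDM2B and KDM3A passed in each of 21 alternatives and that of KDM2A in 9 of 21.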

How the results depend on the processing

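Over the 4 comparisons, the 10 members gave 690 values under alternatives, of which 586 kept direction and call, 47 lost and 10 gained a call, and 47 changed sign. Scaling by library size only left 4 members higher in PA-1 instead of 7, and leaving out single libraries gave 4 to 8. The count of members with a higher response in SK-OV-3 went from 0 to 1 (KDM6B) under DESeq2, no filter, at least 10 counts in every library and GC removal, and was 0 to 1 with single libraries left out. The members that changed sign had no call in the setting concerned. KDM4A was -0.023 (library size only), -0.0089 (size without ribosomal RNA) and -0.029 (GC removed) in PA-1, and -0.08 to 0.084 without single libraries. In SK-OV-3 it was -0.0037 (without ribosomal RNA) and -0.0086 (12 libraries), and -0.07 to 0.047 without single libraries. Its interaction was 0.023 (library size only), 0.0052 (without ribosomal RNA), 0.0014 (at least 10 counts) and 0.11 (GC removed), and -0.092 to 0.072 without single libraries. Its DMSO difference was 0.007 (DESeq2), 0.0071 (RLE), 0.042 (library size only), 0.031 (without ribosomal RNA) and 0.004 (at least 10 counts), and -0.046 to 0.039 without single libraries. The interaction of KDM5A was 5.1e-05 (DESeq2), 0.0071 (limma-voom), 0.00033 (RLE), 0.033 (library size only), 0.014 (without ribosomal RNA), 0.0099 (at least 10 counts), 0.00011 (replicate block) and 0.044 (GC removed), and -0.13 to 0.081 without single libraries. Without single libraries, KDM2A (-0.019 to 0.056), KDM3B (-0.011 to 0.081) and KDM5A (-0.026 to 0.17) in SK-OV-3 and the interaction of KDM4C (-0.14 to 0.08) also crossed 0. The cause was not tested. Same-numbered treated and control replicates had correlations of -0.0277 to 0.00417, and not every sample correlated best with its own number. Such values near 0 cannot show whether same-numbered samples shared more than a number. With the replicate block, 7 members were higher in PA-1, 3 in SK-OV-3 without KDM4B (adjusted p = 0.0576), and the KDM2A interaction was lost (adjusted p = 0.0874). Over all genes, higher and lower calls in PA-1 were 707 and 378, against 235 and 231 by library size only, 544 and 505 without ribosomal RNA, 408 and 159 with GC removed, 469 and 214 with 12 libraries, 1007 and 667 by DESeq2 and 1038 and 588 unfiltered. Without single PA-1 libraries they ranged from 273 to 810 and from 65 to 418, falling most without DMSO replicates 1 (357 and 132) or 2 (275 and 65) or BAY-850 replicate 2 (273 and 71), and without BAY-850 replicate 1 to 237 lower. In SK-OV-3 they were 1662 and 1468, against 2054 and 1036 with GC removed, 993 and 788 without SK-OV-3 DMSO replicate 2, and 1124 and 859 without DMSO replicate 3. For the interaction, 1307 lower calls became 773 by library size only. The share of calls that were higher was 65.2% in PA-1, against 50.4% by library size only and 51.9% without ribosomal RNA. In SK-OV-3 it was 53.1%, against 66.5% with GC removed, and for the interaction 46.3%, against 57.9% by library size only and 63.3% with GC removed. KDM4C, the member with the fewest counts, had the widest interval of the members in SK-OV-3 (-0.016 to 0.57).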
